A study of Mus musculus with 12 samples.

Results

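The cytochrome P450 genes were described in mouse RNA labelled as proximal colonic mucosa. The study's methods describe a section of the proximal colon and name no step that separates mucosa from the muscle beneath. Members were the protein-coding genes whose mouse symbol follows the P450 naming pattern (Cyp, a family number, a subfamily letter and a gene number), with pseudogenes left out, that reached 10 counts in 3 or more mice. Of 98 protein-coding P450 genes by name, 57 passed this filter and 41 did not, out of 20311 genes that passed it among the 38924 in the files. The 41 included 5 genes with no count in any mouse. Another 18 P450-named entries (pseudogenes, antisense transcripts and names outside the pattern, such as Cyp51) were left out by the rule. The samples were 6 female APC Min/+ mice, heterozygous for the Min truncation of the tumour suppressor Apc in every cell, and 6 female wild type (WT) mice, all C57BL/6 and 6 weeks old, an age at which the study looked for differences before polyps form. Each sample was 1 mouse, and the labels name no treatment. The genotypes were housed in separate cages, so cage and genotype cannot be told apart.

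P450 enzymes are heme-containing monooxygenases. Most sit in the endoplasmic reticulum and take electrons from P450 oxidoreductase (Por), while a few, such as Cyp11a1, Cyp27a1 and Cyp24a1, are mitochondrial and use ferredoxin. Members of the Cyp2 and Cyp3 families oxidise drugs, plant compounds, steroids and bile acids, several Cyp2c and Cyp2j enzymes turn arachidonic acid into signalling epoxides, and Cyp4f enzymes hydroxylate fatty acids and leukotrienes. Liver is the best known site, and the gut epithelium carries a set of its own. Many P450 genes stand in tandem clusters of close copies.

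Total counts on genes lay between 50313805 and 197914821 per mouse, so that 3 counts equal 0.0151 to 0.0560 CPM (counts scaled to library size). Levels are given as RPKM (CPM per kilobase of gene length, with TMM-scaled library sizes), which allows genes of different length to be compared. The level of Apc was 12.2 ± 1.08 RPKM in the 6 APC Min/+ mice and 11.8 ± 1.95 RPKM in the 6 WT mice (± SD), and these counts do not separate the mutant allele. APC Min/+ mice M10_2 and M13_1 stood apart from the other 10. Of 9 markers of the distal colon, 7 passed the filter and 7 of these were higher in both mice than in any other mouse. All 9 are among the genes that the study listed as upregulated in APC Min/+ mice from these same samples. Their direction is therefore no independent evidence. The summed level of the 9 was 1052 RPKM in M10_2 and 1069.8 RPKM in M13_1, against 1.45 to 4.48 RPKM in the other 10, and Hoxb13, a homeobox gene of the hindgut end, was at 171 and 125 RPKM against at most 0.337. The 12 colon epithelium markers summed to 6753 and 7209 RPKM in these mice and to between 18783 and 36084 RPKM in the others, largely through Car1, while Epcam was at 667 and 629 RPKM against 607 to 796. Of other cell type markers, 4 of 8 for small intestine were below the other 10 mice in both (sums of 15.9 and 20.3 against 59.5 to 215 RPKM). So were 6 of 7 for adipocytes, 4 of 5 for T cells, 4 of 12 for colon epithelium and 2 of 6 for B and plasma cells. The same held for 1 of 7 for macrophages and 1 of 6 for enteric neurons and glia (all genes 12.2%). Above in both were 2 of 6 for smooth muscle, 1 of 12 for colon epithelium (Cdh1) and 1 of 6 for stroma (all genes 11.8%). Counts of P450 genes and their fold changes between genotypes are therefore given with and without both mice. The part of these marker differences in the P450 values was not tested. Every sample also held muscle and fat RNA. Over all mice the smooth muscle markers summed to 1698 to 2997 RPKM and the adipocyte markers to 37.0 to 886 RPKM. In such mixed tissue fewer cells of a type and less RNA per cell cannot be told apart.

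In 10 of 12 mice the P450 repertoire was dominated by a single gene, Cyp2c55, an arachidonic and linoleic acid oxygenase known from the colon. It was at 162 RPKM in M10_2 and 358 RPKM in M13_1, and between 2384 and 4786 RPKM with a median of 3232 in the other 10. The 6 APC Min/+ mice had a lowest, median and highest level of 162, 2999 and 4786 RPKM, and the 6 WT mice of 2384, 3328 and 4150.5 RPKM. The genotypes overlapped, since the remaining 4 APC Min/+ mice lay between 2863 and 4786 RPKM. Cyp2c55 made up 67.3% to 83.1% of all P450 RPKM in the 10 mice, 18.97% in M10_2 and 34.4% in M13_1. It was still the highest P450 gene in M13_1 and ranked 2 in M10_2, behind Cyp2d34. All 57 members together summed to between 3200.2 and 5758 RPKM in the 10 mice, and to 853 and 1042 RPKM in M10_2 and M13_1. Without Cyp2c55 the gap was much smaller, at 770 to 1210.2 RPKM in the 10 mice and 691 and 684 RPKM in those mice.

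The next levels were far lower. Cyp2c65 followed at a mean of 326 ± 65.9 RPKM (SD, n = 6) in WT mice, then Cyp3a13 at 160 ± 21.9, Cyp4f14 at 80.7 ± 20.9, Cyp4b1 at 66.9 ± 21.01, Cyp4f40 at 54.1 ± 6.18 and Cyp2d26 at 53.9 ± 8.08 RPKM (SD, n = 6 for each). Cyp4f40 and Cyp2d26 differed by less than their spread, as did Cyp4f14 and Cyp4b1. By subfamily, Cyp2c summed to 3593 ± 761 RPKM in WT mice, Cyp4f to 178 ± 27.5, Cyp3a to 166 ± 23.7, Cyp2d to 103 ± 28.4, the single gene of Cyp4b to 66.9 ± 21.01 and Cyp2j to 35.0 ± 7.46 RPKM (SD, n = 6 for each). Cyp4f and Cyp3a lay within each other's spread. The order differed in the mice that stood apart, where Cyp2d summed to 337 and 320.2 RPKM, more than Cyp2c in M10_2 at 245 RPKM.

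**Figure D1:**
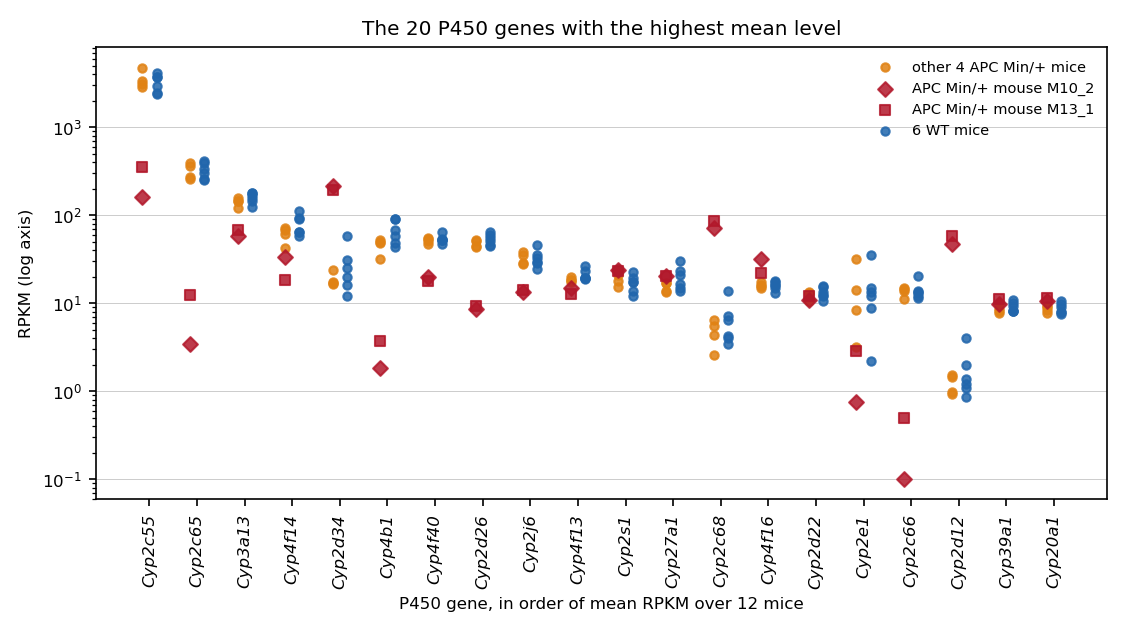
RPKM on a log axis of the 20 P450 genes with the highest mean over 12 mice; each point is 1 mouse, orange for the other 4 APC Min/+ mice, blue for 6 WT mice, and red diamonds and squares for APC Min/+ mice M10_2 and M13_1. Cyp2c55 lies at or above 2384 RPKM in 10 mice and at 162 and 358 RPKM in M10_2 and M13_1, which are high for Cyp2d34, Cyp2c68 and Cyp2d12.

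The Cyp2c genes lie in 1 tandem array on chromosome 19, and the levels in M10_2 and M13_1 split along it. At one end Cyp2c55 (chr19:39007019-39042693), Cyp2c65, Cyp2c66 and Cyp2c29, all on the forward strand, were lower in both mice than in each of the other 10. In the middle Cyp2c67, Cyp2c68 and Cyp2c40, on the reverse strand, were higher in both, and their neighbour Cyp2c69 was within the range of the others in both. The promoters of the 3 highest genes of the first block and of the 3 higher genes of the second are shown because these neighbours differed in opposite directions. Each is the 250 bases before the RefSeq start in GRCm38.p6, read 5′ to 3′ on the gene's strand, with capitals marking the letters CAAAGTCCA, a form of the site bound by the nuclear receptor HNF4.
Cyp2c55: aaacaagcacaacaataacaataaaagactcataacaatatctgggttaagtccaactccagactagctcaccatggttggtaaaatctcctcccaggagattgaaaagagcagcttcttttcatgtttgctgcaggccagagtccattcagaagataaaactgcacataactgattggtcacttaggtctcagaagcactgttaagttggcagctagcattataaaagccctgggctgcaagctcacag
Cyp2c65: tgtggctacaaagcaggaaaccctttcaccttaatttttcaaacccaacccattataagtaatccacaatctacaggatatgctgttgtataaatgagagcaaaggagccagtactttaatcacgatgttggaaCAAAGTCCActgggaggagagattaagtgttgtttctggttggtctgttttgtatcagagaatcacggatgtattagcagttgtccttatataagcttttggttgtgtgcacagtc
Cyp2c66: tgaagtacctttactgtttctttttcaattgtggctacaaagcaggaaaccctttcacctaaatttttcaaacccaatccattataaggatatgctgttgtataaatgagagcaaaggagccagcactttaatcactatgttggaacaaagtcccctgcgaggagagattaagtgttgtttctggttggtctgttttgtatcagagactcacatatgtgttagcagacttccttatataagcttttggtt
Cyp2c67: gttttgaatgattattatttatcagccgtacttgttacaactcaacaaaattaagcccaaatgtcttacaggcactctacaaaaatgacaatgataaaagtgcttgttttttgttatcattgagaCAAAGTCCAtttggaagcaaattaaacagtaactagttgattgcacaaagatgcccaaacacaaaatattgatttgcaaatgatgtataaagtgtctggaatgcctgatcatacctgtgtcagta
Cyp2c68: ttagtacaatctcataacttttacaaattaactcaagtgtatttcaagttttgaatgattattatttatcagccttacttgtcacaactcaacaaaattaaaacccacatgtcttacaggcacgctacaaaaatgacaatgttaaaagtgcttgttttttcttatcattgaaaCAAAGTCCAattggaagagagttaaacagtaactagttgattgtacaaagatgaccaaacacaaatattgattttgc
Cyp2c40: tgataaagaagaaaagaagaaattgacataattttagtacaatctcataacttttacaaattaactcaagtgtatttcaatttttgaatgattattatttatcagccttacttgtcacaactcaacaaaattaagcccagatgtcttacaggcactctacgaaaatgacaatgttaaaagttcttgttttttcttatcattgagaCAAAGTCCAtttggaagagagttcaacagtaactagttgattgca
The windows lie at chr19:39006769-39007018 (forward strand, Cyp2c55), chr19:39060756-39061005 (forward, Cyp2c65), chr19:39113648-39113897 (forward, Cyp2c66), chr19:39741102-39741351 (reverse, Cyp2c68), chr19:39812815-39813064 (reverse, Cyp2c40) and chr19:39649043-39649292 (reverse, Cyp2c67).

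A search of both strands found CAAAGTCCA in Cyp2c65, with its first base 116 bases before the start, and in all 3 windows of the second block, 77 bases before the start in Cyp2c68, 45 in Cyp2c40 and 125 in Cyp2c67. These start positions rest on the annotated starts. The nearest stretch in Cyp2c66 carried A9C and that in Cyp2c55 carried A3G, counted from 1 at the 5′ end of CAAAGTCCA with the motif's base first. The exact letters occurred in 126 of 32851 promoter windows (0.384%), and in 6 of the 47 members with a window in the RefSeq set: Cyp2c65, Cyp2c68, Cyp2c69, Cyp2c40, Cyp2c67 and Cyp3a11. The matches are not independent. The windows of Cyp2c65 and Cyp2c66 were 74.6% identical and those of Cyp2c68 and Cyp2c40 73.5%. Identity was 63.1% for Cyp2c68 with Cyp2c67, 48.2% for Cyp2c67 with Cyp2c40, and 49.2% to 55.3% between Cyp2c55 and each of the other 5. Gaps at the window ends counted against identity, so windows offset by their annotated starts score lower. The Cyp2c67 and Cyp2c40 windows share a long, nearly identical stretch that includes the motif but is offset by their starts, so 48.2% understates their likeness. Of the 6 genes with the motif, Cyp2c65 and Cyp3a11 were lower in M10_2 and M13_1 than in each other mouse, Cyp2c68, Cyp2c40 and Cyp2c67 were higher, and Cyp2c69 was within their range. Hnf4a itself was at 172 and 151 RPKM in those mice, within the 67.7 to 199.6 RPKM of the others, and its part in these levels was not tested. Of 5 other motifs searched, TATAAA was found in 12.4% of all windows and among these 6 genes in Cyp2c55, Cyp2c65, Cyp2c66 and Cyp2c67, TTTATNG (CDX and posterior HOX type) in 9.81% and in Cyp2c55, AGATAA (the site of GATA factors) in 9.99% and in Cyp2c55, and GCGTG (aryl hydrocarbon receptor core) in 28.2% and in Cyp2c68. The HNF1 palindrome occurred in 0.00913% of windows and in none of the 47.

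Cyp2c65, the second Cyp2c gene, was at 3.43 RPKM in M10_2, 12.4 RPKM in M13_1 and 252 to 411 RPKM in the other 10. Cyp2c66 was at 0.101 and 0.494 RPKM against 11.1 to 20.7 RPKM, at least 22.6 times below the lowest other mouse in both. Cyp2c29, an abundant liver enzyme, was low in every mouse, at 0.0115 and 0.00722 RPKM against 0.0417 to 0.228 RPKM. These 4 neighbours were thus low together in the same mice, and the ranges did not overlap. For Cyp2c29 this rests on few reads, with 7 and 2 counts in M10_2 and M13_1 and 10 to 83 counts in the others.

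In the second block Cyp2c68 was at 72.0 RPKM in M10_2 and 86.5 RPKM in M13_1, and between 2.60 and 13.7 RPKM with a median of 4.99 in the other 10. Cyp2c40 was at 1.61 and 2.24 RPKM against 0.0579 to 0.502 RPKM, and Cyp2c67 at 1.06 and 1.79 RPKM against 0.0237 to 0.255 RPKM. Another Cyp2c gene above the range, Cyp2c23, an arachidonic acid epoxygenase known from kidney, lies apart from the array and was at 0.967 and 0.894 RPKM against 0.214 to 0.412 RPKM. Cyp2c69 was at 3.39 and 1.92 RPKM, inside the 0.785 to 3.49 RPKM of the others. As shares of the Cyp2c total, Cyp2c68 held 0.0718% to 0.467% in the 10 mice against 29.4% and 18.6% in M10_2 and M13_1, while Cyp2c65 held 6.99% to 14.0% in the 10 and 1.40% and 2.66% there. The genes of the second block are close copies. Of all windows of 100 bases in the Cyp2c40 transcript 44.1% occur unchanged in another gene, and the share was 36.3% for Cyp2c69, 23.7% for Cyp2c67 and 19.8% for Cyp2c68, so the division of reads among these 4 is uncertain. It was 9.3% for Cyp2c66 and 7.8% for Cyp2c65, all shared between both.

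The Cyp2d genes, which include the mouse relatives of a major human drug oxidase, showed the same kind of exchange on chromosome 15. In the 10 mice Cyp2d26 was the leading gene, at 43.7 to 65.5 RPKM and 42.6% to 62.5% of the Cyp2d total, followed by Cyp2d34 with 16.3% to 37.7%. In M10_2 and M13_1 Cyp2d26 was at 8.58 and 9.26 RPKM, 2.54% and 2.89% of the total, and Cyp2d34 led with 63.6% and 60.6%. Cyp2d34 was at 214 and 194 RPKM in these mice and at 12.2 to 58.0 RPKM, with a median of 18.8, in the others. It was the highest P450 gene of all in M10_2.

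Cyp2d12 was at 47.7 RPKM in M10_2 and 58.6 RPKM in M13_1 against 0.873 to 3.99 RPKM in the other 10, which is 11.9 and 14.7 times the highest of them. Cyp2d9 was at 20.3 and 16.5 RPKM against 0.436 to 3.31 RPKM, Cyp2d10 at 32.2 and 25.2 RPKM against 2.03 to 8.46 RPKM, and Cyp2d11 at 2.56 and 3.35 RPKM against 0.199 to 0.637 RPKM. Cyp2d40 was at 0.744 and 1.02 RPKM against 0.126 to 0.397 RPKM. The genes from Cyp2d11 to Cyp2d40, 6 in a row, were thus above all other mice in both, the gene at one end (Cyp2d26) was below, and the gene at the other end, Cyp2d22, was at 11.0 and 12.2 RPKM, inside the 10.7 to 15.7 RPKM of the others. Identical windows of 100 bases made up 14.8% of Cyp2d10, 12.2% of Cyp2d11, 9.9% of Cyp2d9 and 3.8% of Cyp2d12, and 0.4% of Cyp2d26. The division of reads among Cyp2d9, Cyp2d10 and Cyp2d11 is thus less certain than that between Cyp2d26 and the rest.

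**Figure D2:**
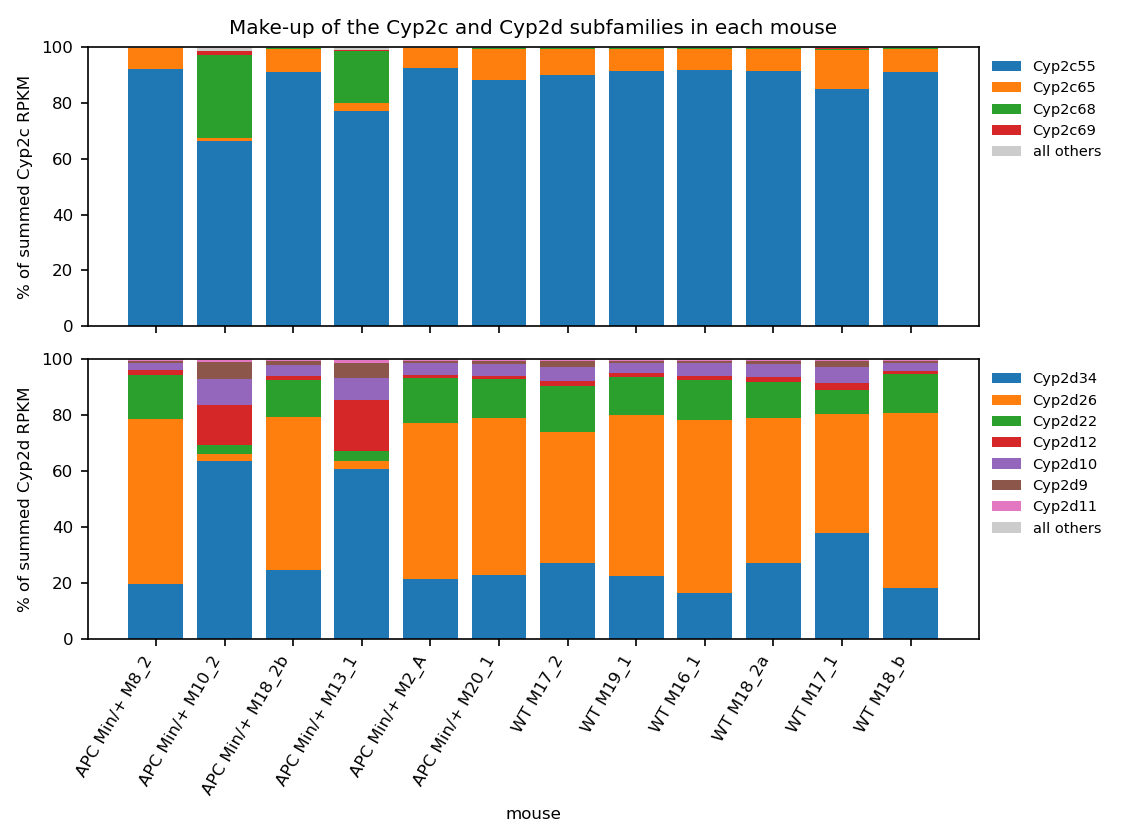
Stacked bars of the percentage of the summed RPKM of the Cyp2c (top) and Cyp2d (bottom) genes held by each gene, 1 bar per mouse, the 6 APC Min/+ mice first; genes that reach 1% in some mouse have their own colour. Cyp2c68 holds 29.4% and 18.6% in M10_2 and M13_1, and Cyp2d34 holds 63.6% and 60.6% there in place of Cyp2d26.

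Most Cyp4f genes on chromosome 17 were split by position as well, for the most part with smaller differences. Cyp4f39, Cyp4f16 and Cyp4f37, at one end, were above the other 10 mice in both M10_2 and M13_1, and Cyp4f40, Cyp4f14 and Cyp4f13, at the other end, were below. Cyp4f16 was at 31.9 and 22.1 RPKM against 13.2 to 17.8 RPKM, and Cyp4f39, a fatty acid hydroxylase known from skin, at 0.253 and 0.235 RPKM against 0.0130 to 0.0842 RPKM. Cyp4f40 was at 19.9 and 18.01 RPKM against 46.7 to 65.6 RPKM. Cyp4f14, which hydroxylates leukotrienes and vitamin E, was at 33.9 and 18.6 RPKM against 43.1 to 111 RPKM, and Cyp4f13 at 15.1 and 12.9 RPKM against 17.7 to 26.4 RPKM. Cyp4f17 was within the range of the others. Cyp4f15, between Cyp4f40 and Cyp4f14, was at 0.0133 and 0.0823 RPKM against 0.0807 to 5.56 RPKM, with a median of 2.39. It was thus below the others in M10_2 only. Cyp4f16 and Cyp4f37 share 9.8% and 8.1% of their windows with other genes, mainly each other.

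**Figure D3:**
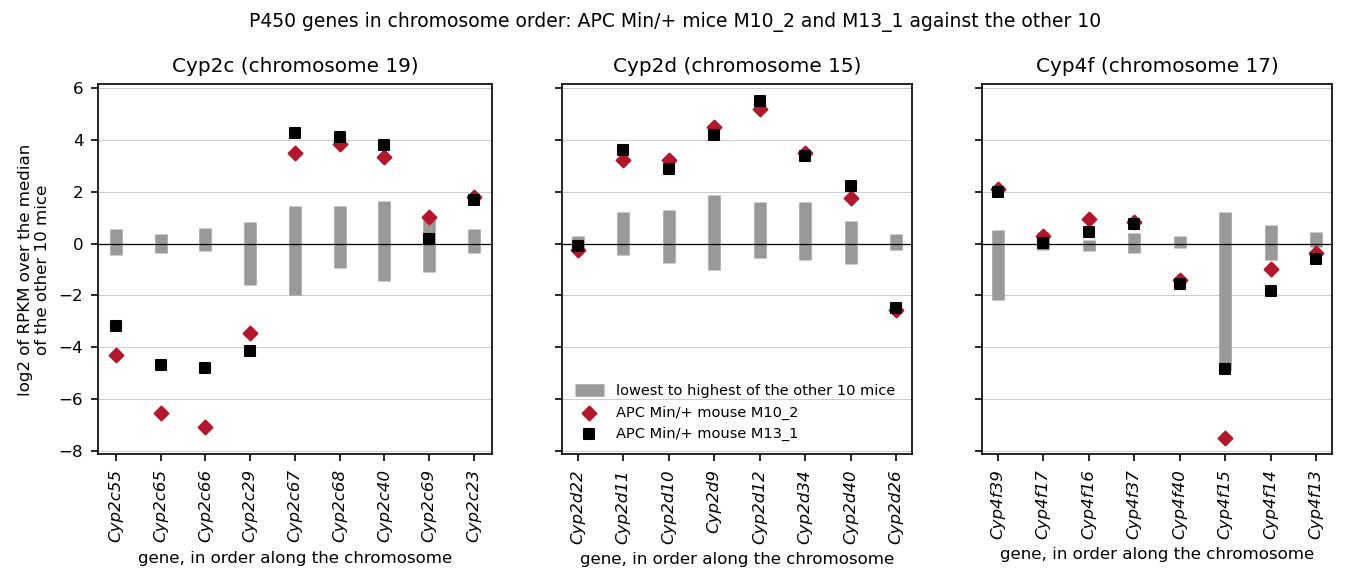
Log2 of the RPKM of each tested gene in APC Min/+ mice M10_2 (red diamonds) and M13_1 (black squares) over the median of the other 10 mice, in chromosome order for the Cyp2c, Cyp2d and Cyp4f genes; grey bars run from the lowest to the highest of the 10. In Cyp2c the first 4 genes lie below the bars and the next 3 above, and in Cyp2d 6 neighbours lie above and Cyp2d26 below; Cyp2c23 stands apart from the Cyp2c array.

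Each of the 5 tested Cyp3a genes on chromosome 5 was lower in both mice. Cyp3a13, the main Cyp3a gene of the colon here, was at 58.6 RPKM in M10_2 and 69.0 RPKM in M13_1 and between 121 and 181 RPKM in the other 10. Cyp3a25 was at 0.0267 and 0.0848 RPKM against 0.574 to 4.53 RPKM, and Cyp3a44 at 0.00515 and 0.360 RPKM against 0.931 to 4.61 RPKM. Cyp3a11, the major Cyp3a enzyme of mouse liver and a target of the pregnane X receptor (Nr1i2), had 0 counts in both mice, where 3 counts would be 0.0151 and 0.0331 CPM, and 31 to 144 counts in the others. Cyp3a59 also had 0 counts in both and 4 to 33 counts in the others. The remaining 4 genes of the subfamily by name were below the filter.

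Outside these arrays, Cyp4b1, which oxidises fatty acids and furan toxins, was at 1.86 and 3.71 RPKM in M10_2 and M13_1 against 32.1 to 91.8 RPKM. Cyp2f2, best known from the club cells of the airway, was at 13.4 and 12.2 RPKM against 0.142 to 0.585 RPKM, 22.9 and 20.8 times the highest other mouse. Cyp2j6, a fatty acid epoxygenase, was at 13.6 and 14.1 RPKM against 24.3 to 46.0 RPKM. Cyp2w1, a gene of the fetal gut, was at 2.85 and 2.15 RPKM against 3.17 to 10.6 RPKM. Over all 12 mice, Cyp39a1, an oxysterol hydroxylase, ranged from 7.85 to 11.1 RPKM and Cyp20a1, which has no settled substrate, from 7.58 to 11.5 RPKM. Cyp2s1, an epithelial P450, ranged from 12.3 to 23.9 RPKM, and Cyp20a1 and Cyp2s1 were higher in both M10_2 and M13_1 than in any other mouse.

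Counted over all members, both M10_2 and M13_1 were above the other 10 mice for 18 of 57 genes (31.6%), against 11.8% of all 20311 genes, and below them for 20 of 57 (35.1%), against 12.2% of all genes. Either held for 38 members (66.7%) and for 24.0% of all genes. Both were at least 2 times the highest other mouse for 12 members (21.1%, all genes 1.87%): Cyp2f2, Cyp11a1, Cyp2d9, Cyp2d10, Cyp2d11, Cyp2d12, Cyp2d34, Cyp4f39, Cyp2c23, Cyp2c40, Cyp2c67 and Cyp2c68. Both were at most 1/2 of the lowest other mouse for another 12 (21.1%, all genes 2.6%): Cyp2c55, Cyp2c65, Cyp2c66, Cyp2c29, Cyp3a11, Cyp3a25, Cyp3a44, Cyp3a59, Cyp2d26, Cyp4b1, Cyp4f40 and Cyp24a1. These are counts of a description, since the mice were known from earlier results to stand apart, and close copies that share reads are not independent. Liver, where several of the high genes are also known, was checked through 7 markers, of which 5 were tested. Alb, at 1.28 and 0.746 RPKM in M10_2 and M13_1 and 0.0102 to 0.339 RPKM elsewhere, and Ttr, at 32.7 and 36.2 RPKM against 2.199 to 8.65 RPKM, were above the other 10 mice in both. Apoh, at 0.124 and 0.0693 RPKM against 0.125 to 0.457 RPKM, and Hpx, at 0.0478 and 0.0448 RPKM against 0.0482 to 0.181 RPKM, were below them. Fgb was at or near 0 in every mouse. Ttr is among the genes that the study listed as upregulated in APC Min/+ mice from these same samples. Its direction is therefore no independent evidence.

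Members with roles in hormone, sterol and vitamin metabolism were counted by list. Of 6 steroid hormone synthesis genes, only Cyp11a1, which cleaves the cholesterol side chain, passed the filter, while Cyp11b1 and Cyp19a1 had no count. Cyp11a1 had 97 and 75 counts in M10_2 and M13_1 and 0 to 10 counts in the others. Of 6 bile acid and oxysterol genes, 4 passed: Cyp27a1, a mitochondrial sterol hydroxylase, at 17.07 ± 3.04 RPKM in APC Min/+ and 20.04 ± 6.20 RPKM in WT mice (SD, n = 6), Cyp39a1 at 9.28 ± 1.23 and 9.21 ± 1.14, Cyp7b1, an oxysterol hydroxylase, at 1.16 ± 0.302 and 1.21 ± 0.1004, and Cyp46a1, known from brain, at 0.233 ± 0.0605 and 0.238 ± 0.0742 RPKM. Cyp7a1, the rate-limiting enzyme of bile acid synthesis in liver, had no count in any mouse. None of the 4 had an unadjusted p under 0.05 between genotypes (edgeR quasi-likelihood test), with or without M10_2 and M13_1, and their median log2 fold change was -0.05 with all mice.

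All 3 vitamin D genes passed the filter. Cyp2r1, which starts the activation of vitamin D, was at 1.23 ± 0.277 RPKM in APC Min/+ and 1.04 ± 0.142 RPKM in WT mice (SD, n = 6), and Cyp27b1, which completes it, at 0.0860 ± 0.0339 and 0.117 ± 0.0239 RPKM. Cyp24a1, which degrades the active hormone and is a target of the vitamin D receptor, had 0 counts in M10_2 and M13_1 and 6 to 366 counts in the other 10. Of 3 retinoic acid breakdown genes, Cyp26b1 alone passed, at 0.591 ± 0.234 and 0.626 ± 0.412 RPKM. Of 3 family 1 genes, Cyp1a1, the classic target of the aryl hydrocarbon receptor, was at 0.257 ± 0.203 and 0.371 ± 0.213 RPKM and Cyp1b1 at 0.112 ± 0.0789 and 0.138 ± 0.0376 RPKM, both lowest in M10_2 and M13_1. None of these 6 genes had an unadjusted p under 0.05 in either fit. Where both mice were lowest, the log2 fold change was -0.51 (SE 0.54) for Cyp1a1, -0.29 (SE 0.44) for Cyp1b1 and -0.43 (SE 1.19) for Cyp24a1, and without them -0.10 (SE 0.49), 0.14 (SE 0.29) and 0.16 (SE 0.93).

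Between genotypes, no P450 gene was called. The edgeR quasi-likelihood test was run on all 12 mice with Benjamini-Hochberg adjustment over 20311 genes. An FDR below 0.05 together with a difference of 2-fold or more was found for 0 of 57 members (0.0% of all genes). The lowest FDR was 0.908 among members and also over all genes, so this value is not particular to P450 genes. With DESeq2, 0 members were called as well, against 0.133% of all genes, and the lowest adjusted p of a member was 0.119, for Cyp2f2. An unadjusted p under 0.05 was found for 13 members (22.8%) by edgeR, against 5.27% of all genes, and for 14 (24.6%) by DESeq2, against 6.48%. Of the 13, 10 were higher in APC Min/+ mice (17.5%, all genes 3.46%), namely Cyp2f2, Cyp2d12, Cyp2d9, Cyp2d11, Cyp2d40, Cyp2c68, Cyp2c67, Cyp2c40, Cyp2c23 and Cyp11a1, and 3 were lower (5.26%, all genes 1.81%), namely Cyp4f14, Cyp4f13 and Cyp3a59. Each of the 10 was a gene for which both M10_2 and M13_1 exceeded the other 10 mice. Without these mice 2 members, Cyp4b1 and Cyp3a59, had such a p by edgeR (3.51%, all genes 1.66%), 0 of them higher (all genes 0.551%) and 2 lower (all genes 1.11%), and 3 by DESeq2 (5.26%, all genes 2.17%), Cyp3a44 being the third. Neither tool called a member on those 10 mice (0.0% of all genes for both).

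The largest difference was that of Cyp2f2, with a lowest, median and highest level of 0.142, 0.369 and 13.4 RPKM in APC Min/+ mice and 0.169, 0.296 and 0.585 RPKM in WT mice. The log2 fold change of Cyp2f2 was 3.77 (SE 1.16, edgeR quasi-likelihood test, FDR = 0.908), and -0.31 (SE 0.41) without M10_2 and M13_1. Cyp2d12 was at 0.924, 1.49 and 58.6 RPKM in APC Min/+ mice and at 0.873, 1.30 and 3.99 RPKM in WT mice. For this gene the log2 fold change was 3.39 (SE 1.11), and -0.53 (SE 0.40) without both mice. Cyp2f2 and Cyp2d12, and also Cyp2a12, which did not pass the filter here, are among the genes that the study listed as differing in these samples. Their direction is therefore no independent evidence. The study called them with edgeR at an FDR below 0.05 and a 2-fold difference, whereas no member was called here. It does not name the edgeR test or count filter it used, and the reason for the different outcome was not tested. The log2 fold changes were 2.23 for Cyp2d9, 2.18 for Cyp2c68, 2.18 for Cyp2c67, 2.09 for Cyp11a1, 1.84 for Cyp2c40, 1.65 for Cyp2d11 and 1.57 for Cyp2d34 (SE 0.73 to 0.94). Without both mice that of Cyp11a1 was 0.09, and the other 6 lay between -0.69 and -0.46.

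Among the lower genes, Cyp3a59 had a log2 fold change of -1.74 (SE 0.72, edgeR quasi-likelihood test, FDR = 0.908) and of -1.13 (SE 0.47) without both mice. It rests on few reads, at 0 to 19 counts in APC Min/+ mice and 7 to 33 in WT mice. Cyp4b1 was at 1.86, 40.5 and 52.1 RPKM (lowest, median and highest) in APC Min/+ mice and at 43.7, 62.9 and 91.8 RPKM in WT mice. This gave -1.09 (SE 0.64) on the log2 scale with all mice and -0.54 (SE 0.23) without both. Cyp4f14 had -0.70 (SE 0.29) and then -0.40 (SE 0.21), and Cyp4f13 -0.30 (SE 0.13) and then -0.18 (SE 0.12). The unadjusted p was over 0.05 for the 3 highest genes in both fits. Cyp2c55 had a log2 fold change of -0.41 (SE 0.60) with all mice and 0.12 (SE 0.20) without both, Cyp2c65 had -0.59 (SE 0.77) and -0.02 (SE 0.18), and Cyp3a13 had -0.46 (SE 0.23) and -0.17 (SE 0.13).

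**Figure D4:**
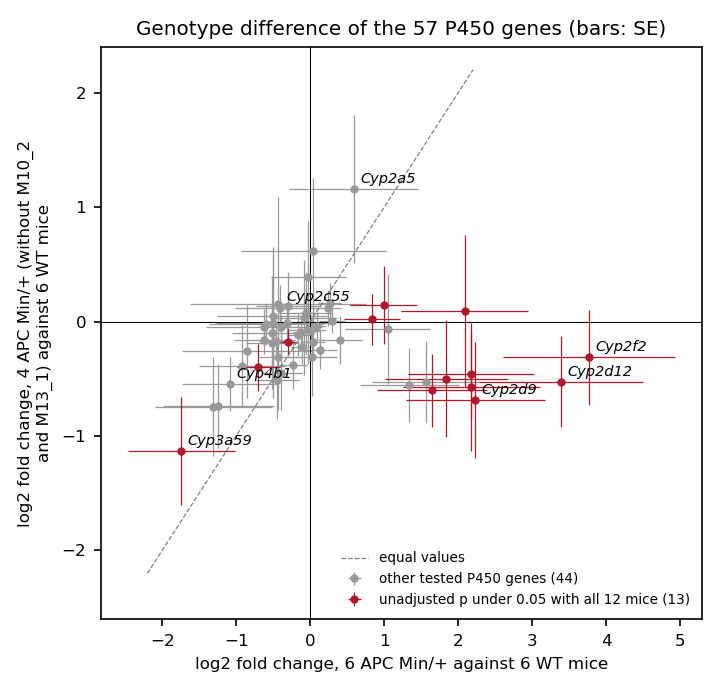
Log2 fold change (APC Min/+ over WT) of the 57 P450 genes with all 12 mice on the horizontal axis and without APC Min/+ mice M10_2 and M13_1 on the vertical axis; bars are standard errors, red marks the 13 genes with an unadjusted p under 0.05 with all mice, and the dashed line marks equal values. Genes at 3.77 (Cyp2f2) and 3.39 (Cyp2d12) on the horizontal axis lie at -0.31 and -0.53 on the vertical one.

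A fold change of at least 2, without regard to the test, was found for 15 members (26.3%, all genes 3.32%) and for 2 without both mice (3.51%, all genes 1.58%), Cyp3a59 and Cyp2a5. The median absolute log2 fold change of the members was 0.46, against 0.15 over all genes, and 0.18 against 0.12 without both mice. The signed median was -0.08 (all genes -0.01) with 24 members higher and 33 lower in APC Min/+ mice, and -0.16 (all genes -0.01) with 16 higher and 41 lower without both mice. No member had genotypes that did not overlap, neither with all mice (0 of 57, all genes 0.118%) nor with the 4 remaining APC Min/+ mice (0 of 57, all genes 0.256%). The summed P450 level was 3260.2 ± 1927 RPKM in APC Min/+ and 4227 ± 782 RPKM in WT mice (SD, n = 6), a difference of -967 RPKM that became 189 RPKM without both mice.

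The spread between mice of the same genotype was wide. The median SD of log2(CPM + 0.1) within genotypes was 0.619 over the 57 members and 0.323 over all genes, and 28 members lay above the 90th percentile of all genes (0.621). Without M10_2 and M13_1 it was 0.401 against 0.294, with 19 members above the corresponding 90th percentile (0.538). The 6 largest SDs were those of Cyp4f15, Cyp2c65, Cyp2c66, Cyp2f2, Cyp2d12 and Cyp24a1, between 2.01 and 2.299. For Cyp2c65, Cyp2c66, Cyp2f2 and Cyp2d12 the SD without both mice was 0.27 to 0.64, whereas Cyp4f15 and Cyp24a1 kept 1.49 and 1.64.

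Cyp4f15 was at 0.0133 RPKM in M10_2 and 0.0823 RPKM in M13_1, but also at 0.0807 RPKM in WT mouse M17_1, and at 1.38 to 5.56 RPKM in the other 9. Its genotypes overlapped throughout. Cyp24a1 had 6 counts in each of WT mice M18_2a and M17_1 and was highest in WT mouse M18_b, at 1.26 RPKM. Cyp2e1, which oxidises ethanol and is known from liver and fat, ranged from 0.763 RPKM in M10_2 to 35.4 RPKM in WT mouse M18_2a, with 32.2 RPKM in APC Min/+ mouse M2_A. The summed level of 7 adipocyte markers was 37.0 RPKM in M10_2, 482 RPKM in M18_2a and 886 RPKM in M2_A, and 63.4 to 309.5 RPKM in the other 9. The part of these markers in the Cyp2e1 value was not tested. Cyp26b1 ranged from 0.215 to 1.14 RPKM and Cyp1a1 from 0.0617 to 0.628 RPKM, within both genotypes.

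**Figure D5:**
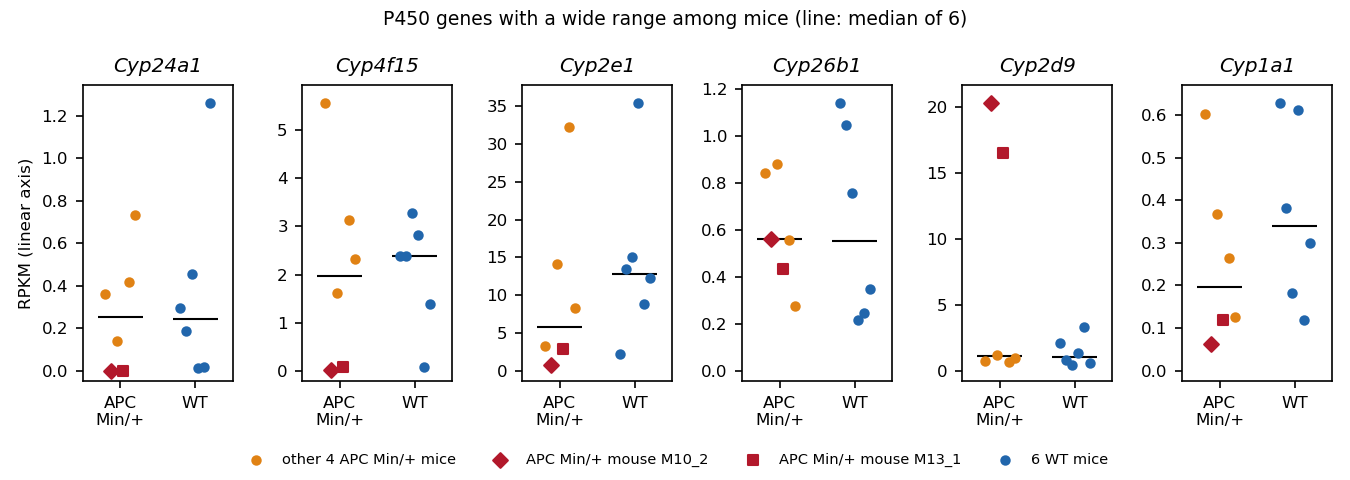
RPKM on linear axes of the 6 P450 genes with the largest SD of log2 CPM among the 10 mice without M10_2 and M13_1; each point is 1 mouse by genotype and horizontal lines are medians of 6. Cyp4f15, Cyp24a1 and Cyp2e1 run from near 0 to 5.56, 1.26 and 35.4 RPKM, with both genotypes overlapping.

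Genes that work with the P450s were counted by list. Of 10 electron donor and heme synthesis genes, 0 were called (edgeR quasi-likelihood test, all genes 0.0%), and Hmox1, which degrades heme, alone had an unadjusted p under 0.05 (all genes 5.27%), with a log2 fold change of -0.47 (SE 0.22) that was -0.32 without both mice. In M10_2 and M13_1, 5 of the 10 (Cyb5a, Cyb5b, Fdx1, Pgrmc1 and Hmox1) were below the other mice (all genes 12.2%) and 0 above (all genes 11.8%). The list summed to 267 and 258 RPKM there against 363 to 509 RPKM. Pgrmc1, a heme-binding partner of P450s, was at 48.9 and 52.0 RPKM against 108 to 147 RPKM, whereas Por was at 24.4 and 23.0 RPKM, inside the 11.999 to 53.7 RPKM of the others. Of 14 tested xenobiotic and sterol sensing regulators, 2 had such a p, both higher in APC Min/+ mice (all genes 3.46%): Nr1i3, the constitutive androstane receptor, with 1.19 (SE 0.46) and Ahr, the aryl hydrocarbon receptor, with 0.36 (SE 0.15), which were 0.56 and 0.13 without both mice. Nr1i2, the pregnane X receptor, was at 32.5 ± 1.75 RPKM in APC Min/+ and 33.5 ± 2.26 RPKM in WT mice (SD, n = 6). Of these 14, Ahr, Arnt, Nr1i3 and Nr1h3 were above the other 10 mice in both M10_2 and M13_1 (all genes 11.8%). Nr1h4, Ppara, Nfe2l2 and Tiparp were below (all genes 12.2%). The bile acid receptor Nr1h4 was at 24.9 and 20.7 RPKM in M10_2 and M13_1 against 47.4 to 82.0 RPKM.

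Conjugating enzymes, transporters and other partners of the P450s were counted in the same way. Of 14 tested UDP-glucuronosyltransferases, 10 were below the other 10 mice in both M10_2 and M13_1 (all genes 12.2%) and 0 above (all genes 11.8%). Ugt2b5 was at 0.292 and 1.56 RPKM against 40.6 to 69.2 RPKM, and Ugt1a1, which conjugates bilirubin, at 1.68 and 2.87 RPKM against 45.7 to 75.5 RPKM. Lower levels in both were also found for 4 of 7 sulfotransferases, such as Sult1d1 at 82.9 and 106 RPKM against 329 to 560 RPKM, 10 of 23 glutathione S-transferases, 2 of 5 flavin monooxygenases, 3 of 10 transporters and 1 of 4 epoxide hydrolases (all genes 12.2%). Above the other mice in both were 1 glutathione S-transferase (Gstm7), 1 flavin monooxygenase (Fmo4) and 1 transporter (Abcc4) (all genes 11.8%). Between genotypes 0 genes of these lists were called, and the unadjusted p was under 0.05 for 0 of the UDP-glucuronosyltransferases and epoxide hydrolases, for Sult1c2 (log2 fold change -0.32), Gstm7 (0.49), Fmo4 (0.73), Abcc4 (0.59) and Abcc2 (-0.66), against 5.27% of all genes. Without both mice these were -0.15, 0.23, 0.07, 0.22 and, for Abcc2, an efflux pump for conjugates, -0.51.

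The 41 P450 genes below the filter had at most 52 counts in any mouse. The nearest, with at least 10 counts in 2 mice, were Cyp2a12, Cyp2c70, Cyp4a30b and Cyp8b1. For the first 3 of these the mice were M10_2 and M13_1, with 52 and 45 counts of Cyp2a12, 43 and 16 of Cyp2c70 and 34 and 21 of Cyp4a30b, against at most 8, 8 and 4 counts in the others. Cyp8b1 had at most 16 counts. Just inside it, with at least 10 counts in 6 mice, were Cyp11a1, Cyp4f39, Cyp3a59 and Cyp2a5, with at most 97, 80, 33 and 70 counts. Cyp2b9 and Cyp2c54 had no count. All 8 Cyp4a genes, fatty acid hydroxylases of liver and kidney, were below the filter, with a summed level of at most 0.232 RPKM.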

How the data were processed

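RNA from a section of the proximal colon, labelled as mucosa, of 6 APC Min/+ and 6 WT mice was sequenced by the authors in paired ends. Per the labels, the reads were aligned to GRCm38.p2 with STAR 2.3.0 and assigned to genes with featureCounts, and the authors deposited 1 table of raw counts per mouse with a gene length for each of 38924 Ensembl genes. Those lengths are deposited as other values in bases. Strandedness of the counting is not given in the sources used here, so antisense partners are not separated, and reads shared by close copies may be split or lost. Total counts were 50313805 to 197914821 per mouse.

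Symbols and coordinates were taken from GENCODE M21 (GRCm38), in which 37607 IDs had a symbol. The 20311 genes that reached 10 counts in 3 or more mice were tested between genotypes with edgeR 4.0.16 (R 4.3.3, TMM factors 0.906 to 1.10, glmQLFit and glmQLFTest, two-sided), with Benjamini-Hochberg adjustment over all of them. A call required an FDR below 0.05 together with a 2-fold difference in either direction. The SE is the fold change divided by the square root of F. The edgeR and DESeq2 fits were tried on simulated counts with the same dispersion for every gene and no mouse standing apart. That setting is unlike these data. Levels are RPKM from the deposited lengths, and spread is the pooled within-genotype SD of log2(CPM + 0.1). Each sample is a separate mouse, and shipment or sequencing batch per mouse is not given in the sources used here. Genes were named if they were among the 20 with the highest mean RPKM, had an unadjusted p under 0.05, had 1 of the 6 largest fold changes or SDs, belonged to a role list or lay next to the filter; Cyp2c and Cyp2d neighbours and the genes around them were added to describe the arrays, after their values were seen. The members, gene lists and tests were chosen with earlier results of these data known.

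Alternatives were DESeq2 1.42.0, its size factors, other count filters, each mouse left out, and M10_2 and M13_1 left out together. DESeq2 without both was added after seeing the data. Promoters come from RefSeq (GRCm38.p6), where 47 of 57 members matched. Protein sequences were not used here. Windows of 100 bases were taken from the longest protein-coding transcript of each member and searched in all GENCODE M21 transcripts.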

Additional observations from a re-analysis of the deposited data

Results flagged for a closer look

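Of 62 groups of 6 mice checked over 31 named members, 6 held a mouse far from the other 5 by Dixon's criterion. Chance gives about 1 in 20 groups if values are normally distributed and groups independent, which was not tested. All 6 were in WT mice. The criterion looks for 1 mouse apart from the other 5, so 2 that lie together, such as M10_2 and M13_1, can hide each other. The absence of flags in APC Min/+ mice therefore does not mean that none stood apart. In WT mouse M17_1, Cyp2c68 was at 13.7 RPKM against 3.46 to 7.13 in the other 5, Cyp2c40 at 0.502 RPKM against 0.0825 to 0.186, and Cyp2d12 at 3.99 RPKM against 0.873 to 2.004. These are genes that were also high in APC Min/+ mice M10_2 and M13_1, at higher levels there. The same mouse had the lowest Por, at 11.999 RPKM, Hnf4a, at 67.7 RPKM, and Rxra, at 3.86 RPKM, of all 12. Some mouse is lowest for each gene, and how often M17_1 was lowest over all genes was not counted. These genes therefore do not show that the mouse is unusual. The distal colon marker sum of M17_1 was 2.16 RPKM, within the range of the other WT mice.

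In WT mouse M18_b, Cyp24a1 was at 1.26 RPKM against 0.0150 to 0.457 in the other 5, Cyp2c66 at 20.7 RPKM against 11.4 to 13.9, and Cyp2c23 at 0.412 RPKM against 0.239 to 0.281. What sets these mice apart was not tested.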

How the results depend on the processing

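The count of P450 genes called between genotypes was 0 under every alternative run. Over all genes it was 27 with DESeq2 and 0 otherwise, including DESeq2 without M10_2 and M13_1. The 13 members with an unadjusted p under 0.05 became 5 when at least 1 CPM in at least 6 mice was required (fewer genes tested), 2 without M10_2 and M13_1, 3 with DESeq2 on those 10 mice, and 4 to 17 with 1 mouse left out. It was 4 without M10_2, M13_1 or WT mouse M18_2a, 6 without M19_1, 7 without M17_2 or M16_1, and 8 without M18_b; the cause was not tested. Without M10_2 and M13_1 the log2 fold change changed sign for 9 of 21 members, with the quasi-likelihood value first and DESeq2 second: Cyp2c55 0.12 and 0.12, Cyp2d34 -0.53 and -0.51, Cyp2c68 -0.46 and -0.45, Cyp2d12 -0.53 and -0.51, Cyp2d9 -0.69 and -0.67, Cyp2f2 -0.31 and -0.31, Cyp2d11 -0.60 and -0.59, Cyp2c40 -0.50 and -0.46, and Cyp2c67 -0.57 and -0.53. The other 12 kept their direction, as did all 21 with DESeq2, its size factors, no count filter or 1 mouse left out, and the 13 of them that passed the 1 CPM filter. The summed P450 difference was -1467 to -486 RPKM with 1 mouse left out. The median SD of the members was 0.344 with log2(CPM + 1) and 0.401 without both mice. No paired analysis was run, because each sample is a separate mouse and the labels pair no mice. Replicate numbers were given in listed order and pair no mice either. The study took RNA samples from all of its cohorts of mice. The shipment of each mouse is not given in the sources used here, so it was not fitted. Members at a few counts, such as Cyp3a59 and Cyp11a1, are limited by depth, and 6 mice a group with this spread limit all.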
